A study of Saccharomyces cerevisiae with 6 samples.

Results

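The 38 genes described here are *MSN2*, *MSN4* and textbook targets of the stress response element, taken by name from the 7122 genes of the expression table. Genes of trehalose, glycogen and chaperones were kept out of the set. All 38 were found. A gene was tested if its FPKM averaged 1 or more across the 6 samples, and all 38 passed this filter, as did 6447 genes in all. RNA of the yeast *Saccharomyces cerevisiae* was measured in 3 samples of WT and 3 of *ths1-C268A*, called replicates A, B and C. Both strains derive from the haploid laboratory strain BY4741 and were grown in rich glucose medium (YPD) to log phase at 30 °C, then kept at 37 °C for 2 h. The mutant has Ala in place of Cys in the editing site of threonyl-tRNA synthetase (ThrRS), which joins Thr to its tRNA and clears tRNA that was charged with Ser in error. The paper states that the mutation also makes ThrRS less stable at 37 °C. How many independent clones of the mutant were used is not given in the sources used here. There was no sample from before the temperature shift, so the values compare the strains at 37 °C and do not measure the induction of any gene by heat.

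Msn2 and Msn4 are related zinc finger transcription factors of the general stress response. In unstressed cells with ample glucose, protein kinase A keeps them in the cytoplasm. Under heat, osmotic, oxidative or nutrient stress they enter the nucleus and bind the stress response element, the short sequence AGGGG, in the promoters of genes for protective proteins, antioxidant enzymes and reserve metabolism. Their activity is set largely by where the proteins are and by their phosphorylation, neither of which was measured here.

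The placing of the element is shown in the promoters of *HSP12*, *DDR2* and *CTT1*, standard reporter genes of the response, and of *RTC3* and *DDR48*, which fell and rose the most between the strains. Each is the 250 bases before the start codon, 5′ to 3′ on the coding strand, read from the R64 genome of RefSeq, with AGGGG or its reverse complement CCCCT in capitals. They lie at chrVI:107006-107255 (+) for *HSP12*, chrXV:231756-232005 (−) for *DDR2*, chrVII:654384-654633 (+) for *CTT1*, chrVIII:280570-280819 (+) for *RTC3* and chrXIII:608439-608688 (+) for *DDR48*.
HSP12: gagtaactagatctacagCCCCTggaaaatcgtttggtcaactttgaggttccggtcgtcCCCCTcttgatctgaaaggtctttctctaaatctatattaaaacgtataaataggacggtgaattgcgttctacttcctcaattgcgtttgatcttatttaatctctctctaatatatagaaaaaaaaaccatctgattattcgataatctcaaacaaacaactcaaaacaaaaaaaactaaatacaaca
DDR2: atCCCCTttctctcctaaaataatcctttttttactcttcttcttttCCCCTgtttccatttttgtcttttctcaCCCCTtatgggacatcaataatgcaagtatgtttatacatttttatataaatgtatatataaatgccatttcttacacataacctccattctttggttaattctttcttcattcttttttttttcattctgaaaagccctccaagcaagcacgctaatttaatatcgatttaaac
CTT1: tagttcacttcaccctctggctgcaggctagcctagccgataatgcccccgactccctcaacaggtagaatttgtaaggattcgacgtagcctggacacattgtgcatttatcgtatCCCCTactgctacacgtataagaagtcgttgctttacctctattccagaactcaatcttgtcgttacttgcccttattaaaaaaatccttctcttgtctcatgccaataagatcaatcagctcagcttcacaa
RTC3: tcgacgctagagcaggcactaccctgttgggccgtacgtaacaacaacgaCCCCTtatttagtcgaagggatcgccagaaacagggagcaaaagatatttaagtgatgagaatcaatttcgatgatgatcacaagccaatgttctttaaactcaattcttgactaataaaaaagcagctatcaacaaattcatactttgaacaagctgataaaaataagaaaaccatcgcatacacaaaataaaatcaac
DDR48: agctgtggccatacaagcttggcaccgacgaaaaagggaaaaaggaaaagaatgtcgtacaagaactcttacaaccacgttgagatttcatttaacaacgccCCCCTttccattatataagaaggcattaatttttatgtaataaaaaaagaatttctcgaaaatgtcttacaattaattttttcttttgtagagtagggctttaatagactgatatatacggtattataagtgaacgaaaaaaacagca
The outermost base of the elements is 232 and 190 bases before the start codon in *HSP12*, and 248, 203 and 175 bases before it in *DDR2*. *CTT1*, *RTC3* and *DDR48* have 1 element each, at 133, 200 and 148 bases.

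AGGGG, searched on both strands, was present in this window of 22 of the 38 genes (57.9%) and of 1111 of 5835 promoters in all (19.0%). At least 2 elements were present in 7 of the 38 (18.4%) and in 2.3% of all promoters. In the 500 bases before the start codon the element was present in 29 of the 38 genes (76.3%), against 34.4% of promoters, and *HSP12* and *PGM2* had 5 each. Because the genes were taken as known targets of the element, these shares describe the set and are not tested. *MSN2* and *MSN4* themselves had none in either window. The window overlaps a neighbouring gene by 41 bases in *FMP45*, 64 bases in *GPD1* and 158 bases in *XBP1*. Of the 38 genes, 11 are on chromosome XIII, including the neighbours *DDR48* and *PAI3*, which face each other across 177 bases, and *SIP18*, 650 bases from *PAI3* on the other side. *ALD3* and *ALD2* lie 689 bases apart on the same strand of that chromosome. The share of all genes on chromosome XIII was not counted for comparison.

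The level of each gene is given in FPKM, fragments scaled to the length of the gene and to the fragments of the sample. The samples held 16597937 to 17761143 fragments over genes in WT and 17806318 to 19114041 in the mutant. The totals used for scaling, recovered from the FPKM, were larger, at 20383352 to 21837705 and 19916890 to 21692557. Fragments over genes were a smaller part of that total in every WT sample than in every mutant sample. The effect of this was not tested beyond the other scalings given below. Differences between strains are log2 fold changes of log2(FPKM + 1), *ths1-C268A* minus WT, which understate the change of low genes. Adjusted p-values are from limma over all 6447 genes, with 0.05 as the threshold. The study calls the samples of a strain biological replicates, and the p-values measure the spread between these samples. *LEU2*, *MET17* and *URA3*, deleted in BY4741, were listed at 0 in all 6 samples. *HIS3*, which is only partly deleted in BY4741, was 86.4 to 106 FPKM in WT and 197 to 271 FPKM in the mutant. The mating type a receptor gene *STE2* was 261 to 355 FPKM. Of the mating type alpha genes, *MF(ALPHA)2* was 25.6 to 33.5 FPKM and *STE3* 4.33 to 6.00 FPKM. *MF(ALPHA)1* was 2.21 to 5.42 FPKM in WT and 0.101 to 0.187 FPKM in the mutant. The strain change is a point mutation, so gene levels do not check the strain labels. Coding length moved with the comparison. Across 6176 protein-coding genes, the log2 fold change had a Spearman correlation of 0.37 with coding length, with longer genes higher in *ths1-C268A*, and 0.33 over the 38 genes. These genes share the same 6 samples, and the part of gene length in the results was not tested beyond the length-corrected values. After that correction *DDR48* (0.54), *RTC3* (−0.88), *ALD3* (−0.80), *GND2* (−0.77) and *YRO2* (−0.39) passed.

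Of the 38 genes, *DDR48* rose in *ths1-C268A* and *RTC3*, *ALD3*, *GND2*, *PAI3* and *YRO2* fell. The 1 gene that rose is 2.63% of the set, against 14.2% of all genes tested, and the 5 that fell are 13.2%, near the 12.1% of all genes. With the total FPKM over protein-coding genes made equal between samples, 669 genes rose and 975 fell, compared with 916 and 783 on the deposited scale, and the 38 genes then held 1 that rose and 8 that fell. The 38 log2 fold changes ran from −1.09 for *RTC3* to 0.58 for *DDR48*, with a median of −0.10, compared with −0.002 over all genes. With 1 sample left out the median was −0.02 (without mutant replicate B) to −0.22 (without mutant replicate C). It was −0.05 without WT replicate C, −0.06 without mutant replicate A and −0.15 without WT replicate A. With all 6 samples, 14 log2 fold changes were positive and 24 negative. For 9 of the 32 genes that did not pass, the p before adjustment was under 0.05, that is 28.1%, compared with 20.2% of all genes that did not pass. All *ths1-C268A* samples were above all WT samples for 4 genes, 10.5% of the set compared with 24.5% of all genes, and below them for 9 genes, 23.7% compared with 21.1%. For the other 25 genes the strains overlapped.

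**Figure D1:**
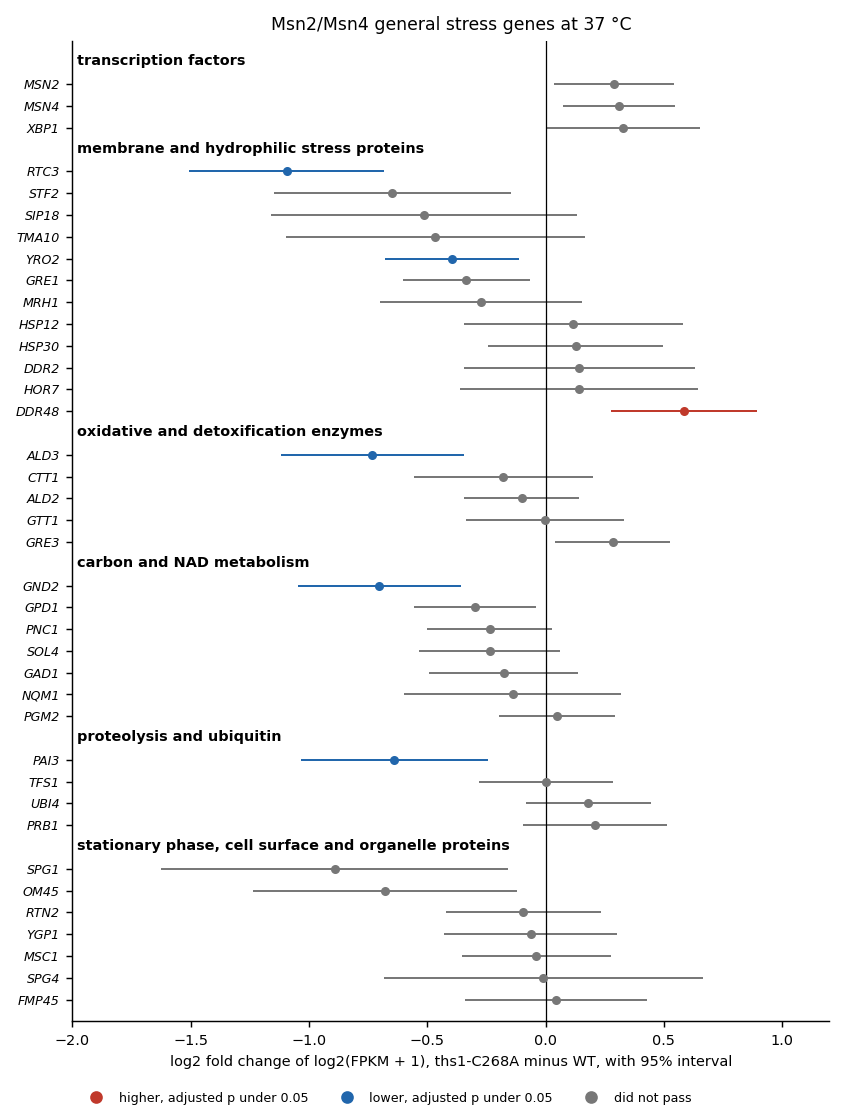
Log2 fold change of log2(FPKM + 1), *ths1-C268A* minus WT, for each of the 38 genes by role, with its 95% interval from the fit (3 samples per strain). 1 gene (red) rose, 5 (blue) fell, and 32 (grey) did not pass an adjusted p of 0.05.

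The calls depended on single samples. Without *ths1-C268A* replicate A, 4 genes rose (*DDR48*, *GRE3*, *MSN2* and *MSN4*), 10.5% compared with 16.9% of all genes tested, and 8 fell, 21.1% compared with 16.4%. Without WT replicate C, none rose and only *RTC3* fell, in a fit that called fewer genes in all (6.51% higher and 5.85% lower). A test on the recovered fragments (limma-voom) called 10 of the 38 genes lower, 26.3% compared with 14.7% of all genes, and *DDR48* alone higher. It added *GPD1*, *GRE1*, *OM45*, *SPG1* and *STF2* to the 5 that fell. The 95% interval lay within a log2 change of 1 in either direction for 29 of the 38 genes and within 0.5 for 11, so smaller changes of most of them were not resolved with 3 samples per strain.

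*MSN2* and *MSN4* encode the transcription factors themselves. *MSN2* (YMR037C, chrXIII:344403-346517, −) was 72.3, 67.7 and 60.5 FPKM in WT, in the order of replicates A, B and C used throughout, and 72.3, 91.8 and 82.1 in the mutant. The highest WT sample and the lowest mutant sample, both replicate A, were the same to 3 digits, and the other 2 mutant samples were above all WT samples. The log2 fold change was 0.29 (SE 0.11, adjusted p = 0.0840), and 0.16 (adjusted p = 0.212) after correction for coding length. *MSN4* (YKL062W, chrXI:323228-325120, +) was 119, 119 and 109 FPKM in WT and 126, 145 and 162 in the mutant. All 3 mutant samples were above all WT samples, with a log2 fold change of 0.31 (SE 0.10, adjusted p = 0.0571), or 0.20 (adjusted p = 0.119) after length correction. Neither passed, except without *ths1-C268A* replicate A, where the adjusted p was 0.0303 for *MSN2* and 0.0157 for *MSN4*. *MSN4* was the higher of the pair in every sample, with *MSN2* at 0.506 to 0.634 of its FPKM. The third factor gene, *XBP1*, a stress-induced repressor of cyclin genes, was 220, 206 and 238 FPKM in WT and 330, 222 and 290 in the mutant. Its ranges overlapped through mutant replicate B, and it passed without that sample (log2 fold change 0.49, adjusted p = 0.0222) but not with it (0.33, adjusted p = 0.119).

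*RTC3* showed the largest fold change of the set. Its product is a small protein of RNA metabolism with structural similarity to the ribosome maturation factor SBDS. *RTC3* (YHR087W, chrVIII:280820-281155, +) was 1926, 2306 and 2285 FPKM in WT and 990, 812 and 1293 in the mutant. All mutant samples were below all WT samples, and the mean fell from 2172 ± 213 to 1032 ± 243 FPKM (SD, n = 3 each), a ratio of 0.475. The log2 fold change was −1.09 (SE 0.18, adjusted p = 0.0052), it was −0.88 (adjusted p = 0.0131) after length correction, and the gene passed in 16 of 16 alternatives, 6 of which leave out 1 sample. It was the only one of the 38 genes whose level differed by a log2 change of at least 1.

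*DDR48*, a DNA damage and heat responsive gene whose product is built of Asn-rich repeats, moved the other way. *DDR48* (YMR173W, chrXIII:608689-609981, +) was 60.7, 65.0 and 56.5 FPKM in WT and 109, 94.5 and 74.4 in the mutant. All mutant samples were above all WT samples, and the mean rose from 60.7 ± 4.23 to 92.5 ± 17.1 FPKM (SD, n = 3 each). The log2 fold change was 0.58 (SE 0.14, adjusted p = 0.0173). It did not pass without WT replicate A (adjusted p = 0.0523), WT replicate C (0.0650) or *ths1-C268A* replicate B (0.0520). Of its 1293 bases, 1085 are shared with the overlapping frame YMR173W-A on the same strand, which was 6.72 to 11.6 FPKM. How fragments from the shared bases were assigned or dropped is not given, so the level of *DDR48* is uncertain.

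Among the other membrane and hydrophilic stress proteins, the most abundant did not pass. *HSP12* encodes a small hydrophilic protein that binds and steadies membranes and is a standard readout of Msn2 and Msn4. *HSP12* (YFL014W, chrVI:107256-107585, +) was 4884, 5677 and 6457 FPKM in WT and 5956, 5484 and 6986 in the mutant. The strains overlapped, with a log2 fold change of 0.12 (SE 0.20, 95% interval −0.35 to 0.58, adjusted p = 0.692), or 0.33 (adjusted p = 0.271) after length correction. By mean WT level it ranked 4 of all genes.

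*DDR2* and *HOR7* encode related very small proteins of unknown function that are induced by many stresses, and their coding sequences are 62.6% identical. *HOR7* (YMR251W-A, chrXIII:774752-774931, +), second of all genes by mean WT level, was 8515, 9185 and 10236 FPKM in WT and 10522, 9450 and 10827 in the mutant. *DDR2* (YOL052C-A, chrXV:231570-231755, −) was 2650, 2828 and 3761 FPKM in WT and 3570, 2645 and 4010 in the mutant. Both overlapped between the strains, with log2 fold changes of 0.14 (SE 0.22, adjusted p = 0.653) for *HOR7* and 0.14 (SE 0.21, adjusted p = 0.644) for *DDR2*. After length correction both were 0.39 (adjusted p = 0.24 and 0.189). The ratio of *DDR2* to *HOR7* was 0.280 to 0.370 over the 6 samples.

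*TMA10* encodes a ribosome-associated protein, and its relative *STF2* a hydrophilic protein that acts on the inhibition of the mitochondrial ATP synthase. *TMA10* (YLR327C, chrXII:783127-783387, −), the third of all genes by mean WT level, was 6787, 7508 and 9477 FPKM in WT and 7666, 4046 and 5903 in the mutant. *STF2* (YGR008C, chrVII:508110-508364, −) was 880, 1056 and 1295 FPKM in WT and 926, 521 and 648 in the mutant. In both, mutant replicates B and C were below all WT samples and replicate A was within the WT range. The log2 fold change was −0.47 (SE 0.28, adjusted p = 0.236) for *TMA10* and −0.65 (SE 0.22, adjusted p = 0.0596) for *STF2*, or −0.23 and −0.41 after length correction, where neither passed. Without mutant replicate A, *STF2* passed (−0.87, adjusted p = 0.0134), as it did with limma-voom (0.0226) and with protein-coding totals made equal (0.0393). *TMA10* did not pass under any of the 16 alternatives. *TMA10* exceeded *STF2* in every sample, with *STF2* at 0.110 to 0.141 of its FPKM.

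The hydrophilin genes *SIP18* and *GRE1*, of which *SIP18* has a role in survival of drying, were low compared with most of the 38 genes. *SIP18* (YMR175W, chrXIII:611016-611255, +) was 48.5, 61.6 and 87.1 FPKM in WT and 66.3, 30.5 and 43.3 in the mutant. *GRE1* (YPL223C, chrXVI:128632-129138, −) was 95.6, 102 and 121 FPKM in WT and 92.5, 74.0 and 85.2 in the mutant. *SIP18* overlapped between the strains, whereas all mutant samples of *GRE1* were below all WT samples. Neither passed, with log2 fold changes of −0.51 (SE 0.28, adjusted p = 0.205) and −0.34 (SE 0.12, adjusted p = 0.0659), or −0.27 and −0.19 after length correction. Without mutant replicate A both passed (adjusted p = 0.0447 and 0.0396), as did *GRE1* with protein-coding totals made equal (0.0347).

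*YRO2*, *MRH1* and *HSP30* encode related membrane proteins with similarity to rhodopsins, of which Hsp30 restrains the plasma membrane proton pump Pma1. *YRO2* (YBR054W, chrII:343101-344135, +) was 40.2, 43.6 and 40.5 FPKM in WT and 25.8, 34.3 and 34.5 in the mutant. All mutant samples were below all WT samples, and its mean fell from 41.4 ± 1.88 to 31.5 ± 4.97 FPKM (SD, n = 3 each), with a log2 fold change of −0.39 (SE 0.12, adjusted p = 0.0476). That call was close to the threshold and was lost without any 1 of the WT samples (adjusted p = 0.0980 without A, 0.157 without B and 0.110 without C), without mutant replicate A (0.0563) and without mutant replicate B (0.0551), and also without the filter on low values (0.0615) or the variance trend (0.0699). *MRH1* (YDR033W, chrIV:508147-509109, +) was 424, 438 and 317 FPKM in WT and 249, 401 and 334 in the mutant, and *HSP30* (YCR021C, chrIII:156109-157107, −) was 24.0, 27.0 and 30.9 and then 23.2, 34.0 and 33.3. Both overlapped, with log2 fold changes of −0.27 (SE 0.19, adjusted p = 0.30) and 0.13 (SE 0.16, adjusted p = 0.580). The ratio of *HSP30* to *YRO2* was 0.597, 0.620 and 0.763 in WT and 0.90, 0.991 and 0.966 in the mutant, without overlap, and this ratio was not tested. Their coding sequences are 54.4% identical, and those of *YRO2* and *MRH1* 70.8%.

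**Figure D2:**
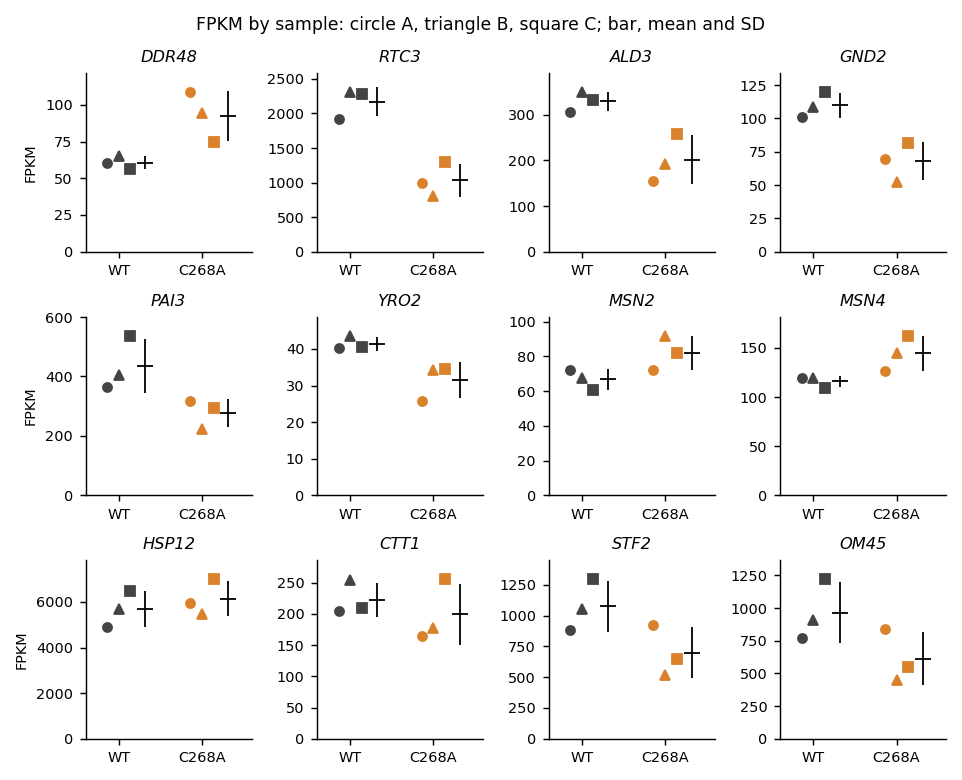
FPKM of 12 of the genes in each sample (circle A, triangle B, square C; WT dark, *ths1-C268A* orange), with the mean and SD of 3 samples beside them and each axis from 0. In *RTC3* the mutant samples reach 1293 FPKM at most and the WT samples 1926 FPKM at least, whereas *HSP12* and *CTT1* overlap.

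Of the oxidative and detoxification enzymes, *ALD3* alone fell. *ALD2* and *ALD3* encode cytosolic aldehyde dehydrogenases of polyamine breakdown and are 91.8% identical in coding sequence, so fragments could be shared between them. *ALD3* (YMR169C, chrXIII:599352-600872, −) was 307, 349 and 332 FPKM in WT and 154, 192 and 259 in the mutant. All mutant samples were below all WT samples, and the mean fell from 329 ± 21.4 to 202 ± 53.0 FPKM (SD, n = 3 each), with a log2 fold change of −0.73 (SE 0.17, adjusted p = 0.0173). Leaving out WT replicate B (adjusted p = 0.0651), WT replicate C (0.0572) or mutant replicate B (0.0526) ended the call. *ALD2* (YMR170C, chrXIII:601562-603082, −) was 59.8, 65.2 and 68.3 FPKM in WT and 59.6, 53.2 and 67.9 in the mutant, with overlap and a log2 fold change of −0.10 (SE 0.11, adjusted p = 0.50). The ratio of *ALD2* to *ALD3* was 0.187 to 0.206 in WT and 0.262 to 0.386 in the mutant, not tested.

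*CTT1*, the cytosolic catalase that removes hydrogen peroxide, was 204, 254 and 209 FPKM in WT and 164, 178 and 255 in the mutant. Mutant replicates A and B were below all WT samples and replicate C was the highest of the 6, with an adjusted p of 0.444. *GRE3*, an aldose reductase, was 277 to 286 FPKM in WT and 297 to 383 in the mutant, all mutant samples above, and did not pass (adjusted p = 0.0806) except without mutant replicate A (0.0140). *GTT1*, a glutathione transferase of the endoplasmic reticulum, had means of 299 and 298 FPKM.

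In carbon and NAD metabolism 1 of 7 genes fell. *GND2*, the minor isoform of 6-phosphogluconate dehydrogenase (YGR256W, chrVII:1004624-1006102, +), an NADPH-forming step of the pentose phosphate pathway, was 101, 109 and 120 FPKM in WT and 69.8, 52.6 and 81.2 in the mutant. All mutant samples were below all WT samples, and the mean fell from 110 ± 9.30 to 67.9 ± 14.4 FPKM (SD, n = 3 each), with a log2 fold change of −0.70 (SE 0.15, adjusted p = 0.0134). It passed in 15 of 16 alternatives and was lost without WT replicate C (adjusted p = 0.0538). Also of this pathway, *SOL4* (6-phosphogluconolactonase) and *NQM1* (a transaldolase) had mean levels of 764 and 297 FPKM in WT and 652 and 273 in the mutant and overlapped. *GPD1*, the glycerol 3-phosphate dehydrogenase of osmotic protection, was 1437, 1483 and 1478 FPKM in WT and 1103, 1204 and 1277 in the mutant. *PNC1*, the nicotinamidase of NAD salvage, was 1540, 1612 and 1616 FPKM in WT and 1268, 1319 and 1464 in the mutant. All mutant samples of *GPD1* and *PNC1* were below all WT samples, and neither passed (adjusted p = 0.0822 and 0.158). *PGM2*, a phosphoglucomutase, and *GAD1*, the glutamate decarboxylase, overlapped, with means of 731 and 402 FPKM in WT and 758 and 360 in the mutant.

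Of the proteolysis genes, *PAI3*, the inhibitor of vacuolar proteinase A, fell. *PAI3* (YMR174C, chrXIII:610159-610365, −) was 364, 404 and 537 FPKM in WT and 316, 224 and 293 in the mutant. All mutant samples were below all WT samples, and the mean fell from 435 ± 90.7 to 278 ± 48.0 FPKM (SD, n = 3 each), with a log2 fold change of −0.64 (SE 0.17, adjusted p = 0.0291). After correction for coding length it was −0.39 and did not pass (adjusted p = 0.0762). Nor did it pass without WT replicate B (0.0706), WT replicate C (0.0857), mutant replicate B (0.0806) or mutant replicate C (0.0518), or without the variance trend (0.0549). *TFS1*, an inhibitor of vacuolar carboxypeptidase Y, was 708, 750 and 849 FPKM in WT and 842, 672 and 799 in the mutant. *PRB1*, the vacuolar proteinase B, was 1281, 1218 and 1478 and then 1700, 1405 and 1490, and *UBI4*, the stress-induced polyubiquitin gene, was 912, 887 and 927 and then 916, 1036 and 1153. These 3 genes overlapped between the strains. Ubiquitin repeats are shared with the ribosomal fusion genes of ubiquitin, so the level of *UBI4* is uncertain where the counting could split fragments.

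None of the 7 stationary phase, cell surface and organelle genes passed with limma on all 6 samples, although 2 of them, *SPG1* and *OM45*, had a p under 0.05 before adjustment and passed with limma-voom. These had the largest log2 fold changes in size among the 32 genes that did not pass. *SPG1*, required for survival of heat in stationary phase, was 155, 164 and 259 FPKM in WT and 126, 58.2 and 139 in the mutant, and *OM45*, of the mitochondrial outer membrane, was 770, 909 and 1220 and then 841, 447 and 551. All mutant samples of *SPG1* were below all WT samples, while *OM45* overlapped through mutant replicate A. Their log2 fold changes were −0.89 (SE 0.32, adjusted p = 0.0711) and −0.68 (SE 0.24, adjusted p = 0.0707), or −0.66 and −0.71 after length correction. *OM45* passed without mutant replicate A (−0.93, adjusted p = 0.0145) and with protein-coding totals made equal (0.0483). *SPG1* passed with the replicate letter as a block (0.0254). *MSC1*, of unknown molecular function, was the fifth of the 38 genes by mean level over the 6 samples. *MSC1* (YML128C, chrXIII:15135-16676, −) was 1668, 1662 and 1917 FPKM in WT and 1691, 1523 and 1906 in the mutant, with overlap and a log2 fold change of −0.04 (SE 0.14, adjusted p = 0.856). *SPG4*, another stationary phase gene, spread widely within a strain, at 772 to 1282 FPKM in WT and 625 to 1414 in the mutant. *RTN2* (a reticulon of the endoplasmic reticulum), *YGP1* (a secreted glycoprotein) and *FMP45* (a membrane protein related to Sur7) had means of 960, 486 and 461 FPKM in WT and 907, 472 and 483 in the mutant, and all overlapped.

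The samples of a strain differed from each other across the set. WT replicate C was the highest WT sample for 26 of the 38 genes and WT replicate A the lowest for 26, that is 68.4% for each, compared with 37.4% and 34.6% of all genes. Among *ths1-C268A* samples, replicate B was the lowest for 25 genes (65.8%, compared with 31.6% of all genes) and replicate C the highest for 23 (60.5%, compared with 31.2%). *DDR48* was an exception, with replicate C the lowest of the mutant. The median over the 38 genes of the difference from the WT mean, in log2(FPKM + 1), was −0.11, −0.01 and 0.12 in the WT samples and −0.14, −0.27 and 0.14 in the mutant samples. Mutant replicate C was thus above every WT sample, and mutant replicates A and B were below every WT sample. The median SD of a gene within a strain was 0.13 in WT and 0.27 in the mutant on the log2 scale, compared with 0.09 and 0.16 over all genes. Together the 38 genes held 5.49, 5.85 and 6.61% of total FPKM in WT and 5.68, 4.71 and 5.91% in the mutant. Coding length varied with the same samples over all protein-coding genes tested. Across those genes the Spearman correlation between length and a sample's deviation from its strain was 0.34, 0.001 and −0.31 in WT. In the mutant it was −0.44, 0.24 and 0.21. The part of length in the spread of the 38 genes was not tested.

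**Figure D3:**
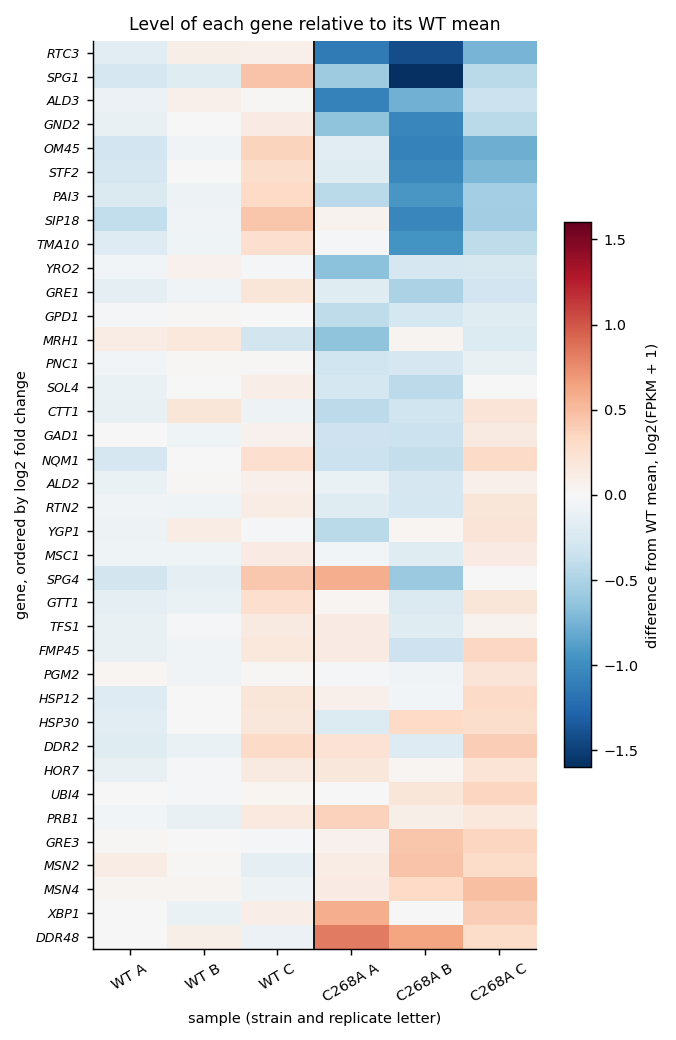
Level of each of the 38 genes (rows, ordered by log2 fold change) in each sample (columns) as the difference from its WT mean in log2(FPKM + 1), red above and blue below. *ths1-C268A* replicate B is the lowest mutant sample for 25 genes, and *RTC3* is low in all 3 mutant samples.

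Levels and promoter elements were set side by side. The median WT level was 207 FPKM for the 16 genes with no element in 250 bases, 731 FPKM for the 15 with 1 and 1589 FPKM for the 7 with at least 2 (*DDR2*, *GTT1*, *HSP12*, *MSC1*, *NQM1*, *PNC1* and *TFS1*). The ranges overlapped, and the highest gene, *HOR7*, had no element in this window. The 16 genes with none include the factor genes *MSN2* (66.8 FPKM) and *MSN4* (116 FPKM), which also enter the correlations below. Across the 38 genes the Spearman correlation of the number of elements with mean WT FPKM was 0.39 for 250 bases and 0.42 for 500 bases, as a description of genes measured in the same samples. With the log2 fold change it was −0.04 and −0.03. In 250 bases, the gene that rose and 4 of the 5 that fell are among the 15 genes with 1 element, and none are among the 7 with at least 2. In 500 bases the same 5 genes are among the 20 with at least 2 elements, and none are among the 9 with 1, so the number of elements at which the calls fell depended on the window. The share of all genes called at each number of elements was not counted for comparison. *YRO2* has no element in either window.

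**Figure D4:**
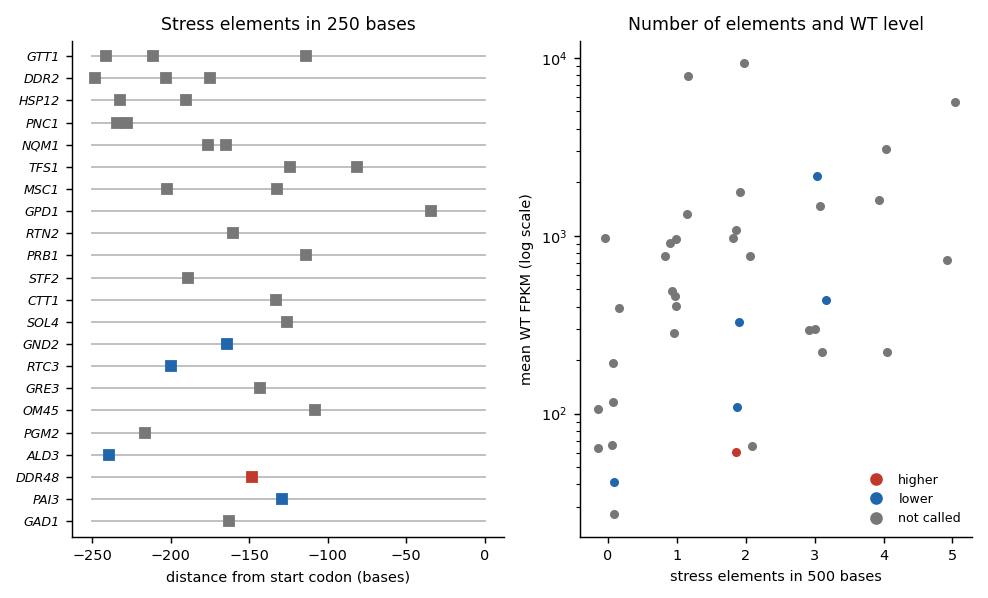
Left, position of AGGGG or CCCCT in the 250 bases before the start codon of the 22 genes that have it. Right, number in 500 bases (points shifted slightly sideways) against mean WT FPKM on a log scale for all 38 genes, in red if the gene rose and in blue if it fell.

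Among 27 regulators of Msn2 and Msn4, 7 rose (25.9%, compared with 14.2% of all genes) and 2 fell (7.41%, compared with 12.1%), with a median log2 fold change of 0.11, or −0.001 after length correction. *RAS2*, the small GTPase that activates adenylate cyclase, fell from 201 ± 1.31 to 141 ± 11.9 FPKM (SD, n = 3 each; log2 fold change −0.51, adjusted p = 0.0056). *IRA1*, which turns Ras off, rose from 22.6 ± 0.844 to 32.8 ± 3.30 FPKM (0.51, adjusted p = 0.0107). The kinase genes *SCH9*, a target of TORC1, and *MCK1*, of the GSK-3 family, rose by 0.49 (adjusted p = 0.0066) and 0.44 (adjusted p = 0.0094). The other gene that fell, named after its value was seen, was the osmotic stress kinase gene *HOG1* (−0.25, adjusted p = 0.0424). Also named after their values were seen, the other genes that rose were *IRA2* (0.53, adjusted p = 0.0173), *GPR1* (0.48, 0.0166), *MSN5* (0.42, 0.0249) and *CDC25* (0.33, 0.0325). After length correction *MSN5* (adjusted p = 0.0724) and *CDC25* (0.287) did not pass. Without WT replicate B, 2 regulators rose, in a fit that called 356 of 6438 genes higher in all. Without mutant replicate A, 11 rose, in a fit that called 1089 of 6446 genes higher (16.9%).

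Further lists of stress genes were counted in the same fit. Of 17 trehalose and glycogen genes none rose, with 0 more at a p under 0.05 before adjustment and 0 with limma-voom. Without mutant replicate A, 1 rose, in a fit that called 16.9% of all genes higher. With all 6 samples 4 fell, 23.5% compared with 12.1% of all genes. These were *GSY1* (−0.59, adjusted p = 0.0066), *TPS1* (−0.61, 0.0106), *TPS2* (−0.48, 0.0291) and *NTH2* (−0.48, 0.0459). The number that fell was 2 without WT replicate A, B or C or mutant replicate B, in fits that called 288 to 527 genes lower in all, compared with 783. Of 18 chaperone genes 11 rose, 61.1% compared with 14.2% of all genes, and none fell, with limma or limma-voom, with *HSP26* (0.78, adjusted p = 0.0017), *HSC82* (1.03, 0.0032), *SSA1* (0.96, 0.0038) and *HSP78* (0.81, 0.0038) at the smallest p. The number that rose was 5 without WT replicate B or WT replicate C, in fits that called 356 and 419 genes higher in all, compared with 916. Of 25 further genes reported to carry the element, 4 rose (*TRX3*, *GCY1*, *AMS1* and *PEP4*, by 0.37 to 0.80) and 2 fell (*HXK1* by 0.52 and *CYC7* by 0.59), with a median log2 fold change of 0.07. *PEP4* was at the threshold (adjusted p = 0.04998). After length correction *AMS1* (adjusted p = 0.0675), *PEP4* (0.0702) and *CYC7* (0.0741) did not pass, and *UBC5* did (0.42, 0.0156). The counts with all 6 samples were 16% and 8% of the list, near the 14.2% and 12.1% of all genes. Without any 1 WT sample or mutant replicate B none of the 25 fell, in fits that called 288 to 527 genes lower in all, compared with 783.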

How the data were processed

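Total RNA of 3 WT and 3 *ths1-C268A* samples was sequenced on Illumina by Novogene. The authors deposited FPKM per gene with coordinates and coding lengths, and HISAT2 is the aligner in the submitters' processing notes. The sources used here do not give the counter, the annotation, the strandedness or any poly(A) selection. Overlapping genes on opposite strands cannot be told apart if strand was ignored.

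FPKM times length gave whole fragments, within 0.01, for 100% of values above 0. A count of 0 allows up to 3 fragments, 0.137 to 0.151 per 1e6 fragments, which covers counting error only. The chi-square per degree of freedom between samples of a strain was 7.72 to 53.2, and no samples agreed within sampling noise.

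Strains were compared with limma 3.58.1 in R 4.3.3 (empirical Bayes with a trend) on log2(FPKM + 1), in a two-sided test of genes that averaged 1 FPKM or more. Adjustment was by Benjamini-Hochberg over all of them. Strain was the only term. The script was tested on simulated data with the same spread in both strains and no trend with length. These data differ in both, so that test checks the code and not the calls made here. Length was corrected with a loess curve (span 0.5) of the deviations in each sample. All 38 genes have the coordinates of R64. Coding identity came from global alignments.

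The 38 genes, the other lists, the motif and the rule for named genes were chosen with earlier results of these data known. Named with full values were *MSN2* and *MSN4*, genes that passed, the 5 highest by mean FPKM and paralogue pairs, and of each other list up to 4 genes with the smallest p. Alternatives tried were a pseudocount of 0.1 or 5, a filter at 10 FPKM or none, scaling by median ratios or to equal protein-coding totals, length correction, limma-voom with TMM scaling, limma without the trend, a replicate block, each sample left out, a log2 fold change of at least 1, and a window of 500 bases.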

Additional observations from a re-analysis of the deposited data

How the results depend on the processing

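Of 608 log2 fold changes of the 38 genes under 16 alternatives each, 546 kept their direction and their side of the threshold. The median over the 38 genes was −0.02 to −0.22 with 1 sample left out and −0.09 to −0.15 under the other alternatives, compared with −0.10. The count of genes that rose, 1, was 0 with a log2 fold change of at least 1 and 0 to 4 with 1 sample left out. The count that fell, 5, was 8 with protein-coding totals made equal, 10 with limma-voom, 3 without the trend, 1 with a log2 fold change of at least 1 and 1 to 8 with 1 sample left out. Of the regulators, 7 rose, compared with 0 at a log2 fold change of at least 1 and 2 to 11 with 1 sample left out. The count of regulators that fell, 2, was 4 after length correction, 1 without the trend, 1 with the replicate block, 0 at a log2 fold change of at least 1 and 1 to 2 with 1 sample left out. Over all genes, 916 rose and 783 fell, compared with 356 to 1089 and 288 to 1054 with 1 sample left out.

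Whether same-lettered samples of the strains were matched is not given in the sources used here. The deviations of the same-lettered samples correlated at −0.23, 0.06 and −0.01. Those of differently lettered samples correlated at −0.20 to 0.21. These ranges overlap, so the correlations cannot decide whether samples were matched. With the letter as a replicate block, 1 of the 38 genes rose and 5 fell, 4 of them shared with the fit without it. *SPG1* was added (adjusted p = 0.0254) and *YRO2* was lost (adjusted p = 0.0567).

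The sign changed in 23 values of 8 genes, all without a call in either fit. *SPG4* was 0.20 after length correction and −0.30 to 0.29 with 1 sample left out. *TFS1* was −0.0088 with median-ratio scaling, −0.0477 with an equal total, −0.0255 with limma-voom and −0.0649 to 0.10 with 1 sample left out. *FMP45* was −0.0044 with an equal total and −0.10 to 0.23 with 1 sample left out. *PGM2* was −0.0012 with an equal total, −0.0426 after length correction and −0.0335 to 0.10 with 1 sample left out. *GTT1* was 0.0815 after length correction and −0.10 to 0.13 with 1 sample left out. With 1 sample left out, *MSC1* was −0.12 to 0.0406, *RTN2* −0.24 to 0.00093 and *YGP1* −0.20 to 0.12. The cause of these changes was not tested. With 3 samples per strain, the spread between samples limits these results more than the number of fragments.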
